A study of Arabidopsis thaliana with 6 samples.

Results

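The CYCLING DOF FACTOR (CDF) and CONSTANS-like genes are transcription factors of the pathway by which Arabidopsis thaliana times flowering to day length. The members were fixed by gene identifier as CDF1, CDF2, CDF3 and CDF5, and as CONSTANS (CO) and COL1 to COL5. All 10 members were found among the 22426 loci of the deposited table. They were compared in whole seedlings of 2 groups of 3 libraries each, wild type and a line that the labels call an NCBP mutant. NCBP is a cap-binding protein related to the translation initiation factor eIF4E. All plants were 2 weeks old and had been kept at 22 °C in days of 16 hours of light and 8 hours of darkness. The labels give neither the accession of the wild type, nor the mutant allele or the number of independent lines, nor the hour of harvest, and nothing states that the replicates were separate sowings. Every p-value here thus reflects variation among the 6 libraries alone, and that variation may be technical.

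As background, CDF proteins bind DNA through a Dof zinc finger and repress CO and its target FT in the morning. Later in a long day the blue-light receptor FKF1, together with GI, marks CDF proteins for destruction, and CO transcript can build up towards the evening. CO protein is held stable by light, is degraded in darkness through COP1 and the SPA proteins, and activates FT, the mobile signal that starts flowering. The CONSTANS-like proteins share the B-box zinc fingers and the CCT domain of CO, and several of them act in light signalling rather than in flowering. Transcripts of CDF1, COL1 and COL2 are known to peak around dawn.

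Expression was given as FPKM, a read-pair count divided by gene length and by library size, and its sums lay between 970383 and 1040255. With no library totals in the labels or the table, the absolute depth is unknown. Ratios between the lowest values of the same gene placed the depth of the other 5 libraries between 1.095 and 1.31 times that of wild-type replicate 1. The ratio taken for a library was shared by only 67 to 149 genes, of 1296 to 1425 genes compared, so these depths are rough. NCBP (AT5G18110) itself lay between 97.4 and 100.4 FPKM in the wild-type group and between 55.8 and 59.2 FPKM in the mutant group. The summed level of 3 leaf markers overlapped between the groups, at 48486 to 59327 FPKM in the wild-type group and 52579 to 56536 FPKM in the mutant group. The summed level of 7 root markers did not overlap, at 1334 to 1604 FPKM against 1007 to 1170.5 FPKM, but most of that sum was PYK10, at 1361 ± 129 FPKM in wild type and 1037 ± 91.8 FPKM in mutant libraries. PYK10 and TIP2;3 passed the test as lower. The other 5 root markers did not pass. COBL9 was higher in every mutant library (log2 fold change 0.32). EXPA7 and RHD6 had log2 fold changes of -0.0030 and 0.06, and SCR and SHR of -0.30 and -0.09. Of 4 flower markers, AG and AP3 reached 0.200 and 0.141 FPKM at most, and neither of the other two passed. SEP3 was at 1.74 to 2.24 FPKM in wild type and higher in every mutant library, at 2.57 to 3.49 FPKM, and PI was at 1.43 to 3.42 against 0.944 to 1.66 FPKM. The seed genes OLEO1 and CRA1 were at or below 0.587 FPKM. In whole seedlings, fewer cells of a type and less RNA per cell cannot be told apart.

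Of the 9 members with a mean of at least 1 FPKM, 4 fell in the mutant, 0 rose and 5 did not pass the threshold. CO lay under that level and was not part of the test. A gene was called when its adjusted p, from limma with Benjamini-Hochberg adjustment over all 18064 tested genes, was under 0.05. Of all tested genes, 14.7% were called, 6.27% as higher and 8.44% as lower. The members that fell were COL1, COL2, COL5 and CDF2. The wild-type and mutant libraries did not overlap for 6 of the 10 members, those 4 and, in the other direction, COL3 and COL4, beside 35.5% of all tested genes, 16.4% higher and 19.1% lower. The median log2 fold change was -0.06 over the 4 CDF genes and -0.23 over the 5 tested CONSTANS-like members, beside -0.0034 over all tested genes, of which the middle 90% lay between -0.36 and 0.39. Without mutant replicate 1 the count of members that fell was 2, COL1 and COL2.

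**Figure D1:**
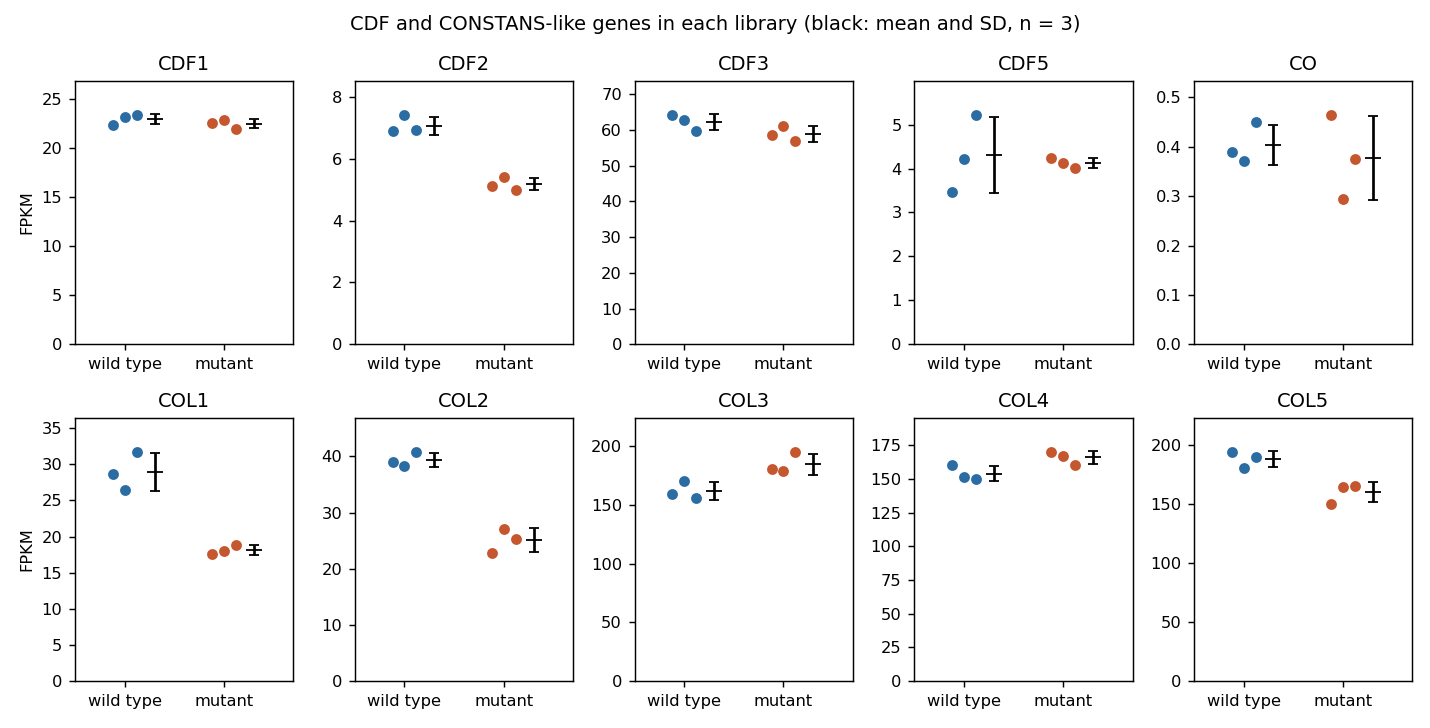
FPKM of each member in the 3 wild-type libraries (blue) and the 3 mutant libraries (orange), with the group mean and SD in black and each axis starting at 0. COL1, COL2, COL5 and CDF2 are lower in every mutant library, COL3 and COL4 are higher in every mutant library, and the groups overlap for CDF1, CDF3, CDF5 and CO.

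The CDF genes come first in the pathway. CDF2 (AT5G39660) was the member of this group that fell. It had 6.89, 7.41 and 6.93 FPKM in wild-type replicates 1 to 3 and 5.13, 5.40 and 5.003 FPKM in the mutant group. Every mutant library lay below every wild-type library, and the mean dropped by 26.8%. On the log2(FPKM + 1) scale, used for all fold changes here, the change was -0.39 (SE 0.08, limma adjusted p 0.0147). The call of CDF2 was lost without mutant replicate 1, at an adjusted p of 0.0525 in a range of 0.00931 to 0.0525 over its alternatives.

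CDF1 (AT5G62430), the founding member of the group and a direct repressor of CO, had 22.4, 23.2 and 23.3 FPKM in the wild-type group and 22.6, 22.9 and 22.0 FPKM in the mutant group. The groups overlapped, and the log2 fold change was -0.03, with a 95% interval of -0.15 to 0.09. CDF3 (AT3G47500), which is known also for a part in drought and cold tolerance, was the most abundant CDF transcript per length. It had 64.1, 62.9 and 59.8 FPKM in the wild-type group and 58.6, 61.2 and 56.9 FPKM in the mutant group, again overlapping. Its log2 fold change was -0.08, with an interval of -0.20 to 0.04.

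CDF5 (AT1G69570) had 3.47, 4.22 and 5.21 FPKM in the wild-type group and 4.24, 4.12 and 4.02 FPKM in the mutant group. The mutant libraries all lay inside the range of the wild-type libraries, which spread widely for this gene. Its log2 fold change was -0.04, with an interval of -0.32 to 0.25. In the TAIR10.1 annotation a noncoding transcript on the opposite strand, AT1G69572, covers 59.9% of the exonic length of CDF5. The strand of the libraries was not stated and AT1G69572 was not among the loci listed, so reads from the shared part cannot be assigned to either gene. The 4 CDF genes together summed to 96.6 ± 1.25 FPKM in the wild-type group and 90.7 ± 2.86 FPKM in the mutant group (SD, n = 3 each), most of it from CDF3.

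CO (AT5G15840), the regulator that gives the family its name, was the member with the lowest level. It had 0.390, 0.371 and 0.450 FPKM in the wild-type group and 0.464, 0.294 and 0.376 FPKM in the mutant group. The groups overlapped, with the mutant libraries holding both the highest and the lowest value. A 2-sided exact permutation test gave p = 0.7 for CO, where a comparison of 3 with 3 cannot go below 0.1. With no filter on low values, the limma adjusted p of CO was 0.845. Its read number is not known. In TAIR10.1 AT5G15843 on the opposite strand shares 25.2% of the exonic length of CO, and AT5G15843 was not among the loci listed.

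COL1 (AT5G15850) lies next to CO on chromosome 5, and its transcript cycles with a peak around dawn. It had 28.7, 26.5 and 31.7 FPKM in the wild-type group and 17.5, 18.1 and 18.9 FPKM in the mutant group. The mutant libraries lay well below the wild-type libraries and close to each other, and the mean dropped by 37.3%. The log2 fold change was -0.64 (SE 0.07, limma adjusted p 0.00173). The whole annotated exon sequence of COL1, 100% of its exonic length, also lies within the antisense transcript AT5G15845 on the opposite strand. AT5G15845 was not among the loci listed. Without strand, the value listed for COL1 may thus hold reads of either transcript.

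COL2 (AT3G02380), whose protein is the closest relative of both CO and COL1 among the members, fell by a similar amount. It had 39.1, 38.2 and 40.8 FPKM in the wild-type group and 22.8, 27.1 and 25.4 FPKM in the mutant group. No mutant library reached the lowest wild-type library, and the mean dropped by 36.2%. The log2 fold change was -0.63 (SE 0.07, limma adjusted p 0.0015). Among all tested genes, 97.3% and 97.1% changed by less in size than COL1 and COL2. COL2 shares 22.4% of its exonic length with AT3G02390 and 9.40% with AT3G02370, both on the opposite strand. Those neighbours had 1.99 and 2.77 FPKM in the wild-type group and 1.56 and 2.76 FPKM in the mutant group, and neither passed the threshold. The shared part is 98.6% of the exonic length of AT3G02390. Without strand, its value and that of COL2 may thus hold reads of either gene.

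COL5 (AT5G57660), known as a promoter of flowering when overproduced, was the most abundant member in wild type. It had 194, 179.9 and 190.0 FPKM in the wild-type group and 149.95, 164 and 165 FPKM in the mutant group. The groups did not overlap, although the step was smaller than for COL1 and COL2, with a drop of the mean by 15.0%. The log2 fold change was -0.23 (SE 0.06, limma adjusted p 0.0274). The call of COL5 was lost under 7 of 18 alternatives, with adjusted p-values of 0.0233 to 0.09 over all of them. These 7 were quantile normalization, a fit with no mean trend, the replicate block, and leaving out wild-type replicate 1 or 3 or mutant replicate 1 or 2.

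COL3 (AT2G24790), a positive regulator of light-dependent seedling development that acts downstream of COP1, lay on the other side. It had 159, 170.4 and 156 FPKM in the wild-type group and 181, 179 and 195 FPKM in the mutant group. Every mutant library was above every wild-type library, with a log2 fold change of 0.19 (SE 0.06, 95% interval 0.06 to 0.32). Its limma adjusted p was 0.056, and it passed under 6 of 18 alternatives. It passed with TPM (adjusted p 0.0296), median-ratio scaling (0.0401), quantile normalization (0.0173), organelle genes left out (0.0287), a mean FPKM of at least 5 (0.0495) and without wild-type replicate 2 (0.0491). The range over all its alternatives was 0.0173 to 0.151.

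COL4 (AT5G24930), known from studies of abscisic acid and salt tolerance and of flowering time, had 161, 152 and 150.1 FPKM in the wild-type group and 170.04, 167 and 161 FPKM in the mutant group. The highest wild-type library and the lowest mutant library nearly touched. The log2 fold change was 0.11, with an interval of -0.01 to 0.22 and a limma adjusted p of 0.182. The 6 CONSTANS-like members together summed to 572.5 ± 8.11 FPKM in the wild-type group and 554 ± 12.01 FPKM in the mutant group (SD, n = 3 each).

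The mean levels of the members ran from 0.404 FPKM for CO to 188 FPKM for COL5 in wild type, and 95.6% of the tested genes lay below COL5 over all libraries. In wild type, by FPKM and therefore per gene length, the order of levels from high to low was COL5, COL3, COL4, CDF3, COL2, COL1, CDF1, CDF2, CDF5 and CO. The libraries of COL3 and COL4 overlapped in that order, and those of all other neighbours were apart. In the mutant the order began with COL3, then COL4 and COL5, which overlapped, and CDF3 kept the next place. COL1, which stood above CDF1 in every wild-type library, stood below CDF1 in every mutant library. The level of COL2 overlapped with that of CDF1 there.

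**Figure D2:**
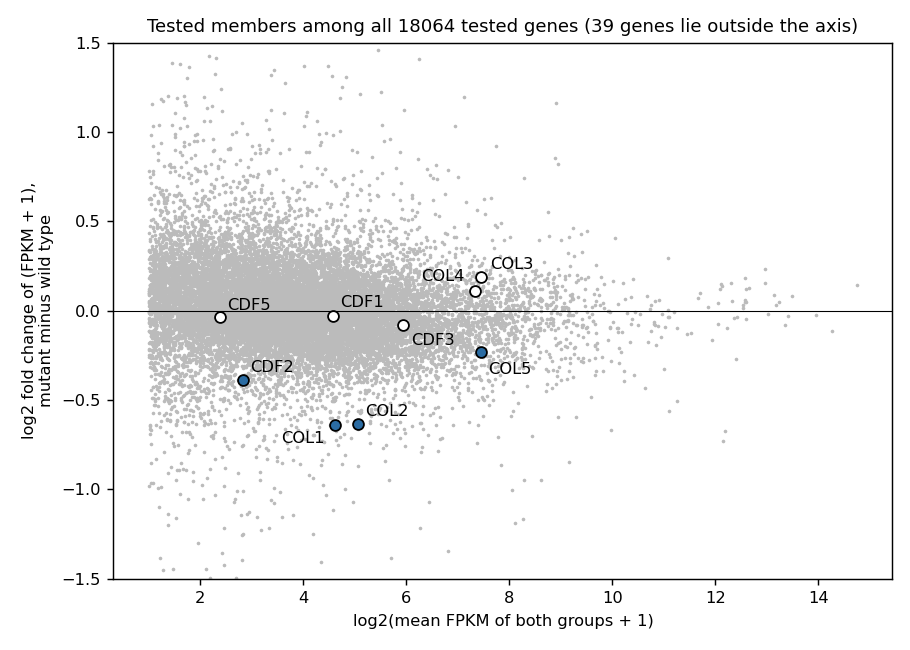
Log2 fold change of FPKM + 1 between mutant and wild type against mean level. Shown are 18064 tested genes (grey) and the 9 tested members (circles, filled where the adjusted p was under 0.05). COL1 and COL2 lie at -0.64 and -0.63, below the 5th percentile of all tested genes (-0.36). The 3 most abundant members lie on both sides of 0. The axis ends at 1.5 in either direction and leaves out 39 genes.

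Ratios between close relatives within a library depend little on how libraries are scaled. Pairs were taken by the identity of the proteins translated from the TAIR10.1 coding sequences. COL1 and COL2 are identical at 69.2% of the residues of the shorter protein, and CO and COL2 at 68.0%. CDF1 is closest to CDF3, at 72.8%, and COL3 is closest to COL4, at 65.3%. No pair of members of the same family shared a stretch of 50 coding bases. Untranslated parts and other genes were not compared, and the labels do not give the read length.

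The ratio of COL1 to COL2 was the same in both groups within its spread. On the log2 scale of FPKM + 1 it was -0.43 ± 0.08 in wild type and -0.44 ± 0.11 in the mutant (SD, n = 3 each, exact permutation p = 0.9). CDF2 fell against CDF1, from -1.57 ± 0.05 to -1.93 ± 0.02, with no overlap between the groups. COL5 fell against COL3, from 0.21 ± 0.12 to -0.21 ± 0.08, and changed from the more to the less abundant of the pair in every library. For both of these pairs the 2-sided exact permutation p was 0.1, the lowest this design can reach. The ratios of CDF1 to CDF3, CDF5 to CDF1 and COL3 to COL4 overlapped between the groups, with exact permutation p-values of 0.5, 0.9 and 0.4. The ratio of CO to COL2 went from -4.84 ± 0.01 to -4.24 ± 0.21 with no overlap (exact permutation p 0.1), where CO lay below the pseudocount of 1 and the ratio therefore follows COL2.

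**Figure D3:**
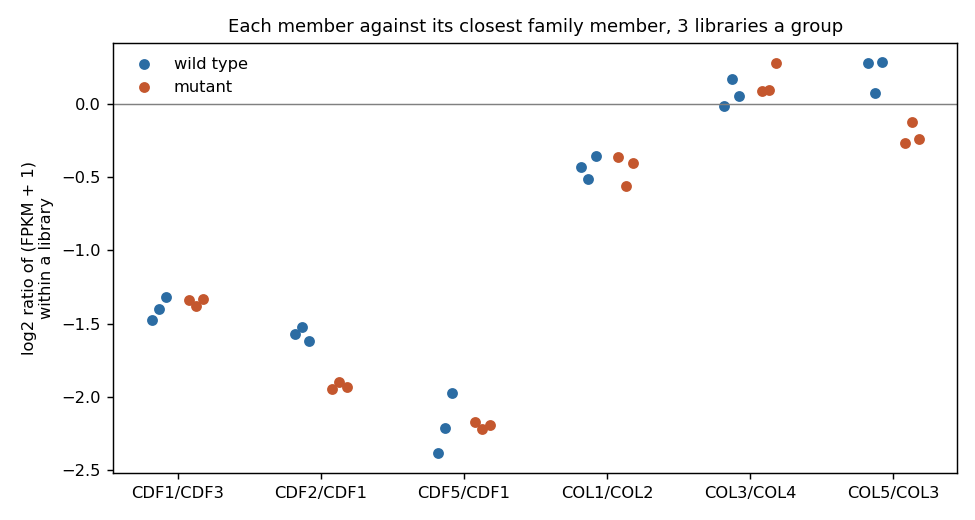
Log2 ratio of FPKM + 1 between each member and its closest relative among the members, in the 3 wild-type (blue) and 3 mutant (orange) libraries. The groups are apart for CDF2 over CDF1 and for COL5 over COL3, and overlap for the other 4 pairs shown. CO is not drawn.

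The promoters of the members were searched for the letters of 4 clock and light elements on both strands, in the 300 bases before each gene start of the RefSeq annotation of TAIR10.1. These elements were chosen after the values of the members had been seen. The windows of CO, COL1 and COL2 overlap other annotated genes. The evening element (AAAATATCT), bound by CCA1, LHY and the REVEILLE proteins, was in 1 of the 10 members, COL2, and in 2.79% of 27443 promoters of protein-coding genes. The related CCA1-binding site (AAAAATCT) was in 1, CDF5, and in 7.94% of promoters. The G-box (CACGTG), bound by light-regulated bZIP and bHLH factors, was in CDF2 and COL4, and in 7.09% of promoters. The site of LUX was searched as GATACG, found in 0 members and 5.51% of promoters, and as GATTCG, found in CDF2, CO and COL3 and in 9.34%. No pair of these words overlapped in a member. The stretch around each element that marks out a member is shown 5′ to 3′ on the strand of the gene, with the element in capitals.
COL2, evening element, 189 bases before the start, TAIR10.1 chr3:489638-489666, minus strand: ataagttaccAAAATATCTtcttgttact
CDF5, CCA1-binding site, 200 bases before the start, chr1:26163898-26163925, minus strand: cgcagtgaaaAAAAATCTaaactatagt
CDF2, G-box, 77 bases before the start, chr5:15878611-15878636, plus strand: taagaatcctCACGTGtgatgacgtg
COL4, G-box, 169 bases before the start, chr5:8589278-8589303, plus strand: aagattttacCACGTGtcaacttttc
CO, LUX word, 33 bases before the start, chr5:5173103-5173128, minus strand: agagataaaaCGAATCtagctttact
COL3, LUX word, 291 bases before the start, chr2:10566536-10566560, plus strand: acggatccgGATTCGaatacccgcg
The G-box thus stood in the promoter of CDF2, which fell, and of COL4, whose libraries were higher in the mutant without passing. COL1 and COL5 fell and held none of the searched words in this window. The longer promoter of CDF2 is shown because it is the CDF gene that fell and holds a G-box and a LUX word close to each other.
CDF2, TAIR10.1 chr5:15878398-15878697, plus strand: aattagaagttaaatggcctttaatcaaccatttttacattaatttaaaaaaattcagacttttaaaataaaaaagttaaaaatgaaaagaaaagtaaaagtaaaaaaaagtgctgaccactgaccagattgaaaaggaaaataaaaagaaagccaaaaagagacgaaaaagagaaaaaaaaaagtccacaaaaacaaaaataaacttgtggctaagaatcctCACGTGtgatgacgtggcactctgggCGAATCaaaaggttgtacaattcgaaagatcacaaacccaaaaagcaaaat
The capitals mark the G-box and CGAATC, the reverse complement of GATTCG. A match is a description of letters and not a shown binding site, and the genome build behind the FPKM was not stated.

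The relatives outside the 10 members that were called mostly rose. Of 11 further CONSTANS-like genes, 9 passed the filter. There were 6 that rose, 1 that fell and 2 outside the threshold (median log2 fold change 0.33), beside 6.27% and 8.44% of all tested genes. BBX8 (AT5G48250) rose from 3.72 ± 0.713 to 6.43 ± 0.576 FPKM (log2 fold change 0.66, adjusted p 0.0105). BBX15 (AT1G25440) was the most abundant of them and rose from 122 ± 1.19 to 156.5 ± 5.61 FPKM (log2 fold change 0.35, adjusted p 0.00307). BBX17, BBX12, BBX13 and BBX14 rose by 0.48, 0.33, 0.27 and 0.21 on the log2 scale. BBX12 and BBX14 share 11.4% and 12.6% of their exonic length with a gene on the opposite strand. BBX16 (AT1G73870) fell from 35.2 ± 1.41 to 29.1 ± 0.462 FPKM (adjusted p 0.014). The calls of BBX12, BBX13, BBX14, BBX16 and BBX17 were lost in 2 to 8 of their alternatives, so with the Dof genes below 3 to 8 relatives were called, against 8 in all.

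The group of CDF-related Dof genes outside the members was small. AT1G29160, annotated as a Dof-type zinc finger protein, was at 4.76 ± 0.798 FPKM in the wild-type group and rose to 6.71 ± 0.181 FPKM (log2 fold change 0.43, limma adjusted p 0.0312). Its call was lost when any of 5 of the 6 libraries was left out, all but wild-type replicate 2, and with no filter on low values, with adjusted p-values of 0.0144 to 0.0958 over its alternatives. AT2G34140, of the same annotation, had 1.77 ± 0.412 and 2.77 ± 0.652 FPKM and did not pass (adjusted p 0.11). AT1G26790 was listed at or below 0.126 FPKM and was not tested.

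**Figure D4:**
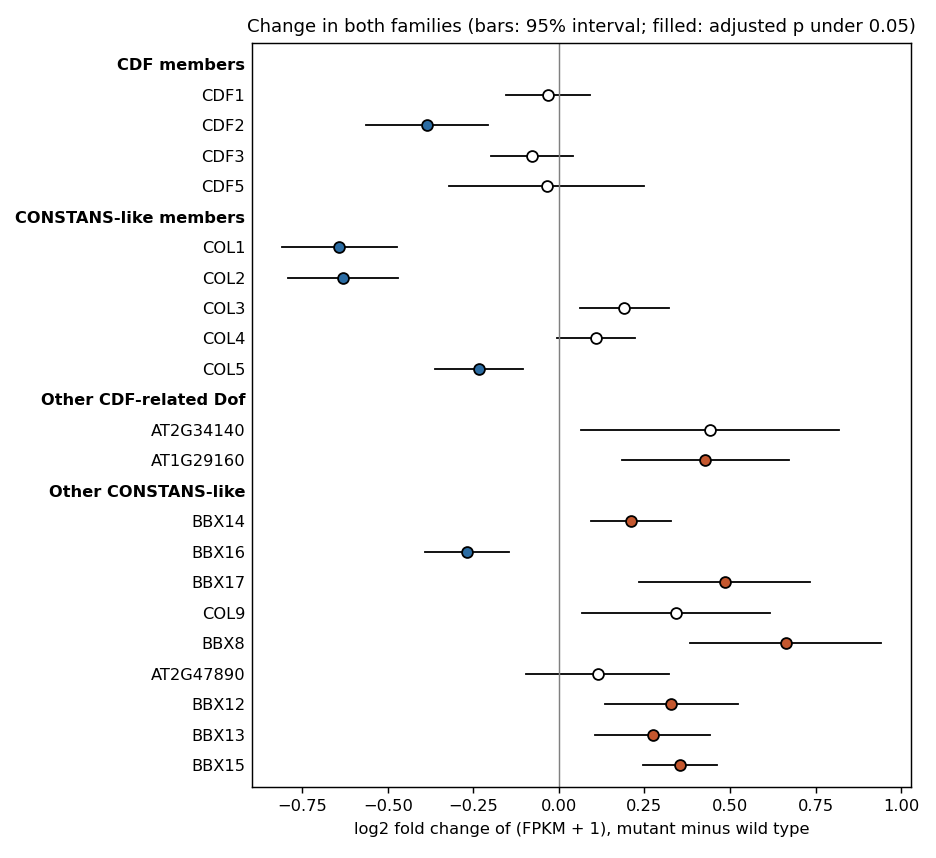
Log2 fold change of FPKM + 1, mutant minus wild type, with 95% intervals, for the tested members and their tested relatives. Circles are filled where the adjusted p was under 0.05. COL1, COL2, COL5, CDF2 and BBX16 lie below 0, and the 7 filled genes above 0 are all relatives outside the 10 members.

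The genes that act on CDF and CO, or below them, were read from the same fit. Of 29 genes of the photoperiod pathway, 27 passed the filter, and the fit called 3 higher and 8 lower and left 16 outside the threshold (median log2 fold change -0.15), beside 6.27% called higher and 8.44% called lower of all tested genes. FKF1 and GI, which together mark CDF protein for destruction, both rose. FKF1 (AT1G68050), the blue-light receptor and F-box protein, went from 3.01 ± 0.888 to 5.67 ± 0.947 FPKM (log2 fold change 0.75, adjusted p 0.0216). GI (AT1G22770) went from 23.6 ± 2.13 to 30.02 ± 0.535 FPKM (log2 fold change 0.34, adjusted p 0.0158). ZTL (AT5G57360), a relative of FKF1, fell from 32.3 ± 0.77 to 26.9 ± 0.997 FPKM (adjusted p 0.0177). LKP2 (AT2G18915), a further relative of FKF1, had a log2 fold change of -0.12 and did not pass.

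Among genes that act on CO protein, COP1 (AT2G32950) had 17.3 ± 1.01 and 17.1 ± 0.0839 FPKM and did not pass (adjusted p 0.868). Of its SPA partners, SPA3 and SPA4 fell. SPA4 (AT1G53090) went from 12.2 ± 0.775 to 9.04 ± 0.27 FPKM (adjusted p 0.00949). SPA3 (AT3G15354) went from 24.9 ± 0.827 to 20.6 ± 0.309 FPKM (adjusted p 0.0163). SPA1 and SPA2 did not pass (log2 fold changes -0.15 and -0.09, limma adjusted p 0.0739 and 0.406). The photoreceptor gene PHYA (AT1G09570) fell from 41.8 ± 2.24 to 31.5 ± 0.962 FPKM (adjusted p 0.00432). The other genes that fell were CRY1, TPL, TEM1 and TEM2, where TPL encodes a co-repressor that works with CDF proteins. TEM1 and TEM2 encode repressors of FT, and TEM2 (AT1G68840, symbol RAV2) had the lowest p of the list, with a fall from 68.4 ± 3.26 to 42.9 ± 3.31 FPKM (log2 fold change -0.66, adjusted p 0.00101).

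At the output, FT (AT1G65480) had 0.546 ± 0.128 FPKM in the wild-type group and 0.348 ± 0.108 FPKM in the mutant group and, like CO, lay under the level for testing. Its groups overlapped, with an exact permutation p of 0.2. SOC1 (AT2G45660, symbol AGL20), a floral promoter on which this and other pathways meet, was the third gene that rose, with a log2 fold change of 0.50 (adjusted p 0.00776). The count of pathway genes called was between 5 and 8 when 1 library was left out, against 11 in all. The calls of FKF1, ZTL and TEM1 were each lost without any of 4 of the libraries, and those of GI and SPA3 without either of 2. Adjusted p-values over their alternatives were 0.0123 to 0.0686 for FKF1, 0.0138 to 0.0645 for ZTL, 0.0123 to 0.0732 for TEM1, 0.011 to 0.0576 for GI and 0.0119 to 0.0574 for SPA3. CRY1 and TPL (limma adjusted p 0.0230 and 0.0272) were not followed singly through the alternatives. How stable their calls are is therefore not known.

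Of 10 clock regulators of CDF and CO, 3 rose, 3 fell and 4 did not pass (median log2 fold change 0.13), beside the same 6.27% and 8.44% of all tested genes. LHY, CCA1 and RVE8 fell by 1.36, 0.57 and 0.77 on the log2 scale. Their transcripts peak near dawn, as do those of CDF1, COL1 and COL2. Of these members CDF1 did not pass (log2 fold change -0.03). Among the other CDF genes, CDF3 and CDF5 did not pass either (-0.08 and -0.04), and CDF2 fell (-0.39). PRR5 (AT5G24470), a repressor of CDF genes, rose from 11.9 ± 1.36 to 19.9 ± 0.423 FPKM (adjusted p 0.00185), and ELF4 and LUX (PCL1) rose by 0.71 and 0.51. LUX shares 17.8% of its exonic length with a gene on the opposite strand. PRR7 and PRR9, further repressors of CDF genes, had log2 fold changes of 0.16 and -0.02 and did not pass. The part of the clock genes, of the hour of harvest, of PYK10 and TIP2;3 and of the floral markers in the changes of the members was not tested.

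**Figure D5:**
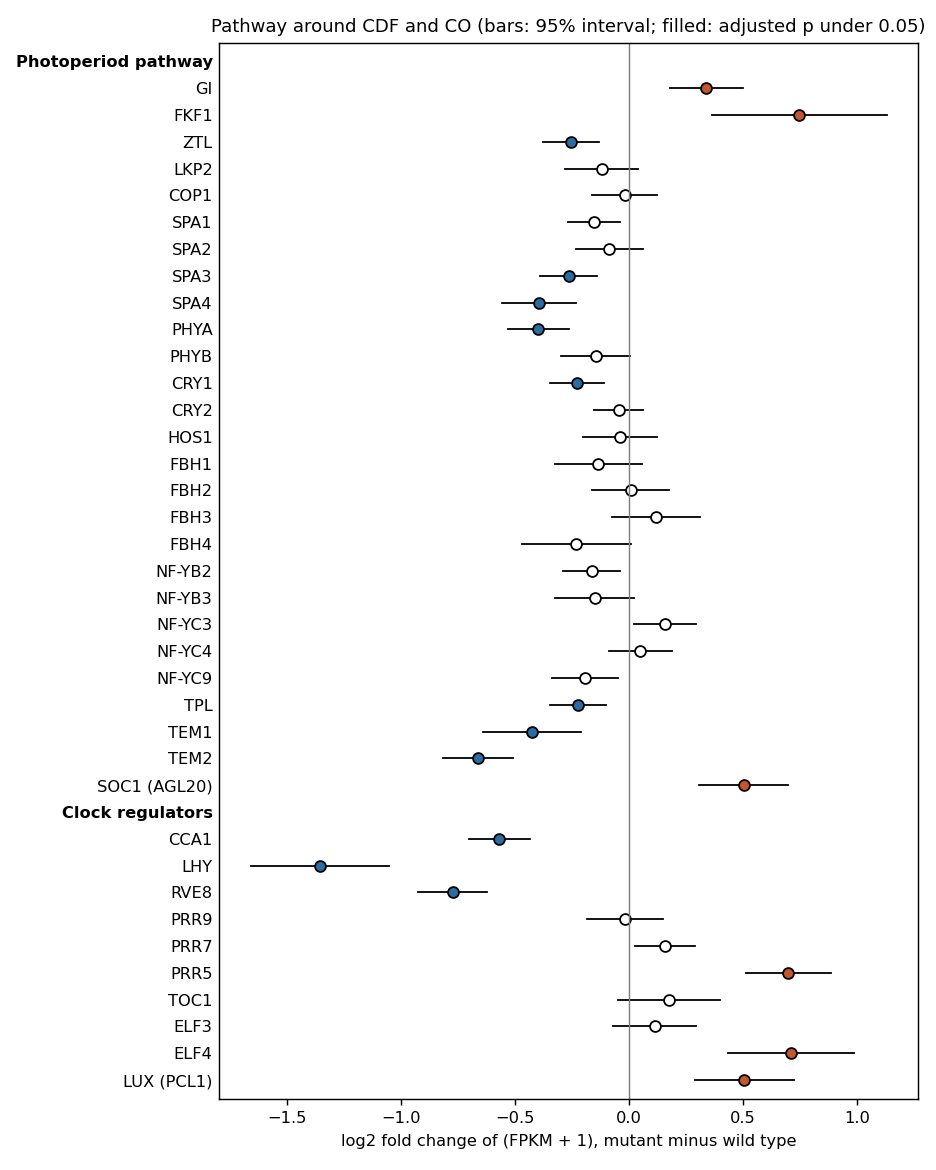
Log2 fold change of FPKM + 1, mutant minus wild type, with 95% intervals, for 27 tested genes of the photoperiod pathway and 10 clock regulators. Circles are filled where the adjusted p was under 0.05. LHY lies lowest at -1.36 and FKF1, ELF4 and PRR5 lie highest, between 0.70 and 0.75.

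The genes whose values followed a member most closely over the 6 libraries were listed for the CDF gene and the CONSTANS-like gene with the smallest p, as a description. For CDF2 these were AT5G47050 (Pearson r 0.998), EDS16 (0.996) and AT2G20330 (0.996). For COL2 they were EMB3142 (0.999), RPT2 (0.997) and CYSC1 (0.997). With 6 points in 2 groups such values are common, and 543 and 594 tested genes reached 0.95 with CDF2 and COL2. All of these genes share the same libraries and their scaling.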

How the data were processed

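RNA-seq of 6 whole-seedling libraries was analysed, 3 per group, each column being assigned to its sample by its label. The authors deposited FPKM, 1 column per library and not pooled. Per the submitters' processing notes HISAT2 was used. The build, the annotation and the program behind the FPKM were not stated. They are estimates and not whole-read counts, so no count test was used, and their precision is known only through the spread between replicates.

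Genes averaging 1 FPKM or more over the 6 libraries (18064 of 22426) were tested on log2(FPKM + 1) with limma 3.58.1 in R 4.3.3, 2-sided, with a mean trend and Benjamini-Hochberg adjustment over all tested genes, at a threshold of 0.05. Every adjusted p is from this test. The pseudocount understates fold changes of genes with low values. On simulated data for this comparison with 18064 genes, the step recovered 69% of 100 genes changed 1.5-fold and 92% of 100 changed 2-fold, with 9 false calls. Relative depth came from the ratio shared by the most genes among values under 0.5 FPKM.

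Gene models, promoters and coding sequences were read from the RefSeq annotation and genome of TAIR10.1. Translated proteins were aligned globally with Biopython 1.88 and BLOSUM62. The name CDF5 comes from the definition of the members, and relatives carry RefSeq symbols.

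The members and gene lists were chosen with earlier results of these data known. Named were all members, 8 fixed genes of the lists and up to 6 other called genes per list and direction. Of the 8, the antisense partner of CDF5 was not among the loci listed. CRY1, TPL, LKP2, SPA1, SPA2, PRR7, PRR9, AT2G34140 and AT1G26790 fall outside this rule and were named after their values were seen. The 18 alternatives were 2 pseudocounts, 2 filters, 4 scalings, 3 variance models, a replicate block and leaving out each library. Same-numbered libraries did not deviate together.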

Additional observations from a re-analysis of the deposited data

How the results depend on the processing

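COL1 and COL2 kept their direction and their call under all 18 alternatives, with log2 fold changes of -0.70 to -0.55 and -0.69 to -0.56. CDF1, CDF3 and COL4 stayed outside the threshold under all of them. CDF5 reversed without wild-type replicate 3, with values of -0.15 to 0.084 over the libraries left out. COP1 reversed with TPM (0.0066), with organelle genes left out (0.0066) and without wild-type replicate 3, with -0.046 to 0.026 over the libraries left out. None of these values passed, and the cause was not tested. The count of members that rose was 1, COL3, in place of 0 with a mean FPKM of at least 5, TPM, median-ratio scaling, quantile normalization and organelle genes left out. Leaving out each library gave 2 to 5 members called, 2 to 4 that fell and 0 to 1 that rose. It gave 1307 to 1908 genes called of all tested, against 2657, 5 to 8 pathway genes and 3 to 5 relatives, where fewer samples make the test weaker. The lowest counts of all genes were 1307 without mutant replicate 1 and 1382 without mutant replicate 2. With no filter on low values 5 relatives were called, and with the replicate block 4. The replicate numbers are not stated to pair the libraries, and the deviations of same-numbered libraries correlated at 0.07, -0.07 and -0.06. The block gave 1991 calls over all genes and ended the call of COL5 among the members (adjusted p 0.0636). TPM moved the share of called genes that were higher from 42.6% to 53.9%, and organelle genes left out moved it to 54.1%. The log2 fold change of FT, which lay under the filter, was -0.54 and -0.05 with pseudocounts of 0.1 and 5, and with no filter it was -0.20 (limma adjusted p 0.227). The absolute depth behind the values is unknown.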
